A study of Mus musculus with 18 samples.

Results

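Hprt and 9 other genes for purine enzymes were followed in mouse embryoid bodies with and without induction of the transcription factor Msgn1. The 10 genes are a named list. Hprt was chosen by its rise on induction, already known from these arrays, so its values are given as a description, with no test. The question was whether the other purine enzymes share that rise. Of the 10 members, 9 were measured, against 14351 genes tested in all. Impdh2 had no probe set matched to 1 gene and has no value here. The list was called a purine salvage list, but it also holds enzymes of synthesis from small precursors and of guanine nucleotide formation, and it is called the purine enzyme list below.

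Embryoid bodies of the A2loxFMsgn1 embryonic stem cell line, strain 129P2, were induced on day 2 of differentiation with 1 µg/ml doxycycline, which switches on Flag-tagged Msgn1, and were collected 12, 24 or 48 h later. The groups are induced at 12, 24 and 48 h and uninduced at 12, 24 and 48 h, with 3 arrays each (18 Affymetrix arrays), which the labels call biological replicates. All 6 groups carry the cassette, all come from 1 line, and the stem cells had been grown on mitomycin-treated embryonic fibroblasts. No group received doxycycline without the cassette, so that doxycycline, transcription of the cassette and Msgn1 protein cannot be told apart. Nothing in the labels says whether the replicates were separate cultures, so p-values measure the spread between these arrays.

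Purine nucleotides are made in cells by synthesis and by salvage. Synthesis builds the purine ring step by step from small precursors, beginning with the amidotransferase Ppat, passing through Gart and Paics, and ending at the bifunctional enzyme Atic, which yields inosine monophosphate. Impdh1 and Impdh2 turn inosine monophosphate towards guanine nucleotides. Salvage re-uses free bases and nucleosides: Hprt takes hypoxanthine and guanine, Aprt takes adenine and Adk takes adenosine, while Ada deaminates adenosine. In A2lox lines, the doxycycline-responsive cassette stands in front of Hprt on the X chromosome, and Hprt is therefore the member whose position is shared with the inducible construct.

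The promoter windows of 4 members are shown, because Hprt is the member that rose, Aprt and Paics are the members called on induction, and Ppat starts 276 bases from the start of Paics. Each is the RefSeq window of 250 bases before to 50 after the gene's start, in GRCm38.p6, written 5′ to 3′ on the strand of the gene, with the GC box (GGGCGG, and its reverse complement CCGCCC) in capitals.
Hprt chrX:52987828-52988127 (+ strand): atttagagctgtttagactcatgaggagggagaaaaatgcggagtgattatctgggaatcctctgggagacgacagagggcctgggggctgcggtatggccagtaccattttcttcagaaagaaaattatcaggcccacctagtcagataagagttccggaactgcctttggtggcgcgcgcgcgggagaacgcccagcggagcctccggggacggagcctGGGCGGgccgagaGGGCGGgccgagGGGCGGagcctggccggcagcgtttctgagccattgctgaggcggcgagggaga
Aprt chr8:122576858-122577157 (- strand): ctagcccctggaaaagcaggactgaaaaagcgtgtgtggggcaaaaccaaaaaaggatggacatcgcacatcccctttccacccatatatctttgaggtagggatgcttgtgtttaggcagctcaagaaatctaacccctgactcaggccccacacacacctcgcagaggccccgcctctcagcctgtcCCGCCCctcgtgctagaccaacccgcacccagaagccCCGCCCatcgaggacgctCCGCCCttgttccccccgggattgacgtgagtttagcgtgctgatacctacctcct
Ppat chr5:76951529-76951828 (- strand): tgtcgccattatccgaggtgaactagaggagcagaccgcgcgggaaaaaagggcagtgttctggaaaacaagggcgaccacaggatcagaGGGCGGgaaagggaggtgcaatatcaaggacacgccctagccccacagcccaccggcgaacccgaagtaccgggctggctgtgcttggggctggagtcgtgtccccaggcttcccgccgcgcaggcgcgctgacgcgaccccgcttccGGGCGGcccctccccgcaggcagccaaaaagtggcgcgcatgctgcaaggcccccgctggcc
Paics chr5:76951052-76951351 (+ strand): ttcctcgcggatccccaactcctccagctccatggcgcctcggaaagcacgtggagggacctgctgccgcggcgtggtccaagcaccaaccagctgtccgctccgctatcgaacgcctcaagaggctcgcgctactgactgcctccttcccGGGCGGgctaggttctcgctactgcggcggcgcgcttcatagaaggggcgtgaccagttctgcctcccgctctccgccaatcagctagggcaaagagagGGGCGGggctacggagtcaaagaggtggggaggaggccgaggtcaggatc
Hprt holds 3 GC boxes, at -29, -16 and -4 from the gene start, and no E-box (CANNTG), the motif that bHLH factors such as Msgn1 bind. GC boxes lie in 35.7% and E-boxes in 72.3% of the 32851 promoter windows of the table, on either strand. The TATAAA motif occurs in 13.6% of them and in none of the 4 windows shown. Hprt's window is 61.0% G or C. On chromosome 5, Ppat (- strand) starts at 76951578 and Paics (+ strand) at 76951302, 276 bases apart. Each is transcribed towards the start of the other, and their windows share no base. Ppat and Paics have 2 GC boxes each in their windows. Paics has 2 E-boxes and Ppat none. Aprt, with 3 GC boxes, has no E-box. A motif found here is a description of the letters, not of binding.

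The check of the induction is Msgn1 itself. Its mean signal was 70.6, 59.0 and 51.4 in induced arrays at 12, 24 and 48 h, against 19.0, 11.2 and 6.14 in uninduced arrays (n = 3 each). The arrays were alike in level, with a trimmed mean of signal of 150.001 on each and a correlation of 0.990 to 0.993 between replicates of a group. Markers of cell state within the embryoid bodies moved as well, and markers of the fibroblasts were looked at. Of 5 pluripotency markers, 4 were lower in induced arrays at 48 h, where 5.53% of all genes were lower. Their summed signal at 48 h was 5695 to 6717, against 8934 to 9356 in uninduced arrays. Of 5 early mesoderm markers, 4 were higher at 24 h, where 2.91% of all genes were higher. Their summed signals were 1909 to 2643 in induced arrays and 703 to 1183 in uninduced arrays. At 48 h 1 of the 5 was higher, where 6.84% of all genes were higher. The sums overlapped at that time, at 6689 to 8472 in induced arrays and 5881 to 7465 in uninduced arrays. Of 10 markers of the fibroblasts, Col1a2 was higher at 24 h (1 of 10, against 2.91% of all genes). Col1a2 and Twist2 were higher at 48 h (2 of 10, against 6.84% of all genes). The summed signals at 48 h were 784 to 906 in induced arrays and 618 to 831 in uninduced arrays. The part of these cell states and of the fibroblasts in the values below was not tested. In bulk samples, fewer cells of a type and less RNA per cell cannot be told apart.

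Hprt was far above its uninduced level at all 3 times. At 12 h its signal was 975, 822 and 901 in induced arrays, against 228, 203 and 257 in uninduced arrays. At 24 h the values were 1372, 1343 and 1750 in induced arrays, against 219, 321 and 212 in uninduced arrays. At 48 h they were 1934, 1850 and 2028 in induced arrays, against 210, 252 and 211 in uninduced arrays. The groups did not overlap at any time, and the highest uninduced array lay far below the lowest induced one. On the log2(signal + 32) scale the difference was 1.84, 2.44 and 2.94 at 12, 24 and 48 h, which is 3.57, 5.42 and 7.69 times on that offset scale; the ratio of mean signals was 3.92, 5.93 and 8.63. Among 14351 genes its change stood 3rd, 2nd and 3rd from the top. The induced level itself grew with time, by 1.08 log2 units at 48 h compared with 12 h, whereas the uninduced level at 48 h differed from that at 12 h by -0.03. Hprt was chosen by this rise and no p is given for it. Only 1 probe set, 1448736_a_at, measures it.

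**Figure D1:**
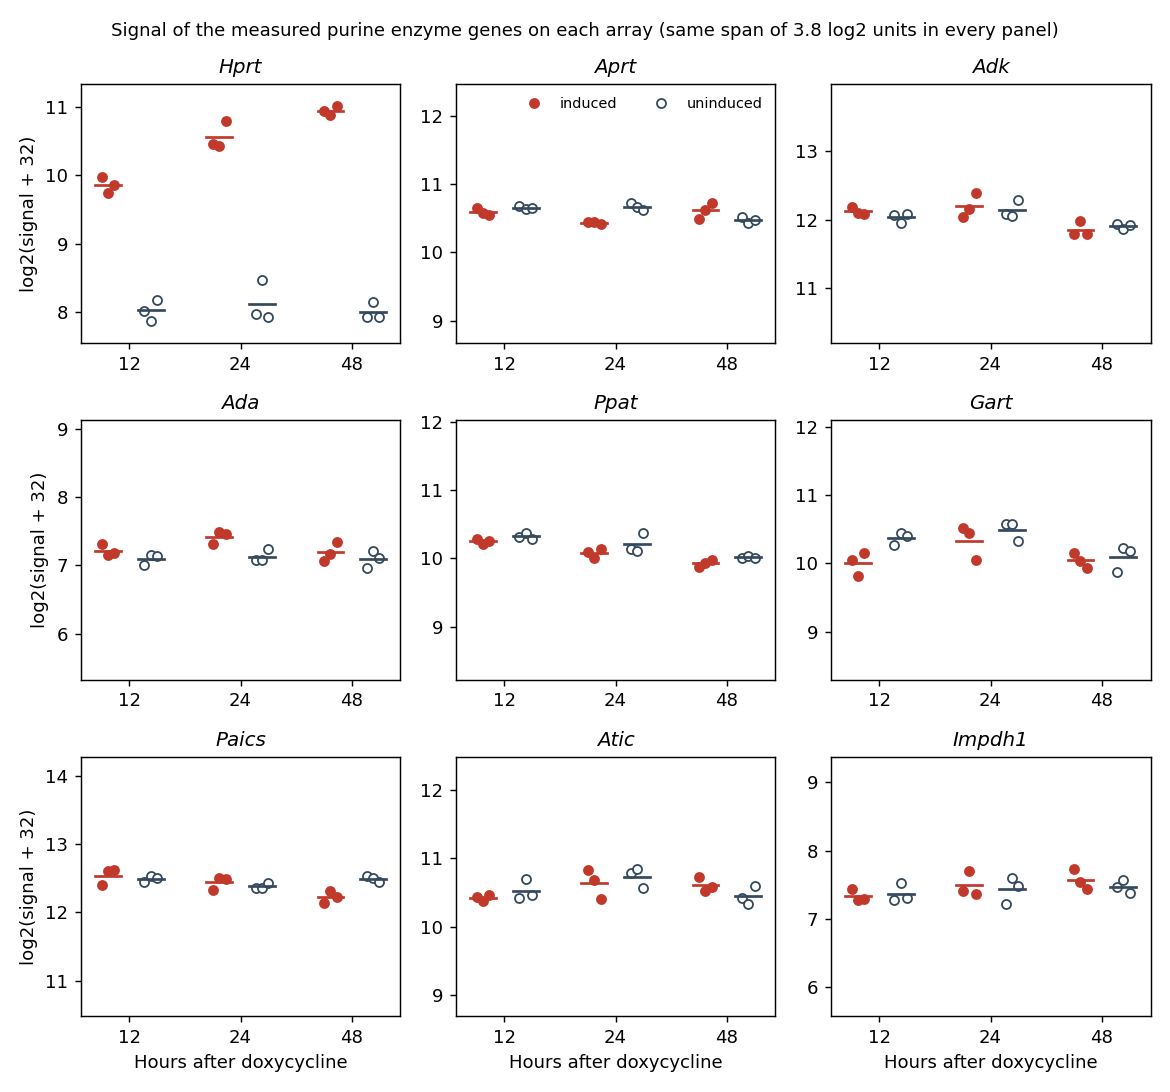
Log2(signal + 32) of the 9 measured members on each array, by hours after doxycycline; filled red points are induced arrays, open points uninduced arrays (3 each), lines are group means, and every panel spans the same 3.8 log2 units. Hprt separates at all times, with induced arrays between 822 and 2028 in signal and uninduced arrays between 203 and 321, while in the other panels the group means lie close together.

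None of the other 8 measured members was higher in induced arrays at any time by the limma test over all genes at an adjusted p under 0.05. At 12 h, 0 were called higher and 0 lower, 1 having an unadjusted p under 0.05, where 0.892% of all genes were called higher and 0.174% lower. At 24 h 0 were higher and 1 was lower, where 2.91% of all genes were higher and 0.989% lower. At 48 h 0 were higher and 1 was lower, against 6.84% higher and 5.53% lower over all genes. The median log2 change over the 8 was -0.05, -0.02 and 0.03 at 12, 24 and 48 h, and that of all genes 0.00, 0.01 and 0.01. The highest upper end of the 95% intervals of the 8 changes was 0.32 at 12 h, 0.50 at 24 h and 0.36 at 48 h, against differences of 1.84, 2.44 and 2.94 for Hprt.

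**Figure D2:**
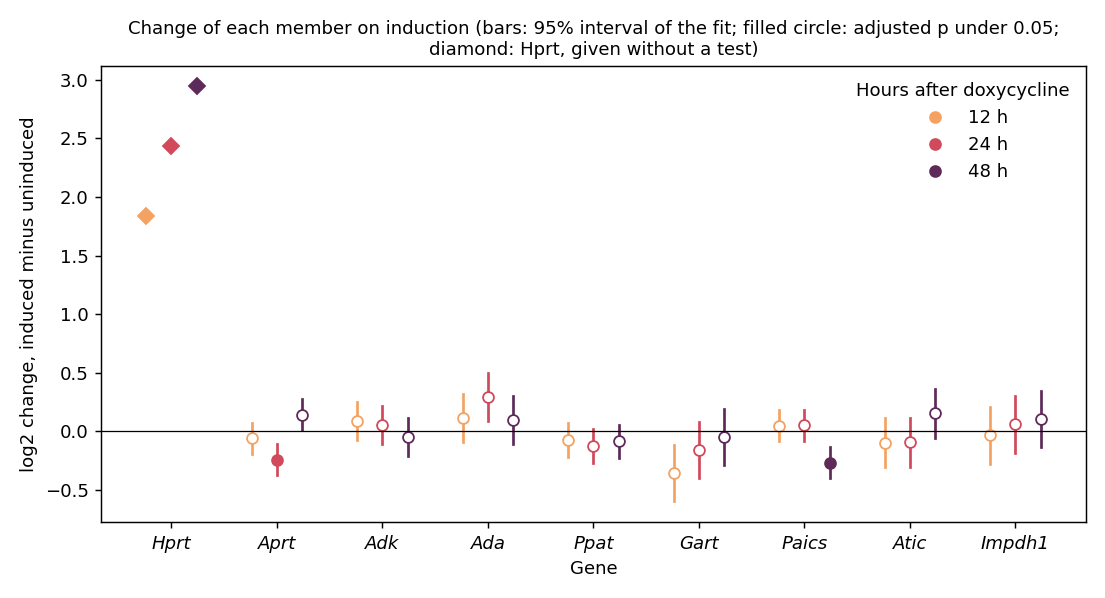
Log2 change on induction of each member at 12, 24 and 48 h, with 95% intervals of the fit; filled circles have an adjusted p under 0.05, and the diamonds are Hprt, given without a test. Hprt stands at 1.84, 2.44 and 2.94, and every other value lies between -0.36 and 0.29.

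Among the salvage enzymes, Aprt was lower at 24 h. Its signal there was 1356, 1355 and 1329 in induced arrays, against 1664, 1594 and 1537 in uninduced arrays. All induced arrays lay below all uninduced arrays. The change was -0.24 ± 0.0624 on the log2 scale (SE; adjusted p = 0.0314 by limma). Both probe sets of Aprt were called lower at 24 h over all 26049 probe sets, of which 0.465% were lower and 1.85% higher, with changes of -0.24 and -0.27 and adjusted p of 0.0451 and 0.0193. The call was lost when any array at 24 h other than uninduced replicate 3 was left out (adjusted p 0.0668 to 0.138), and in a fit without an intensity trend or on the 24 h arrays alone (0.0796 and 0.129). At 12 h the signals overlapped and the change was -0.06. At 48 h Aprt had 1413, 1546 and 1667 in induced arrays and 1438, 1344 and 1392 in uninduced arrays, a change of 0.14 (adjusted p = 0.160 by limma), which passed the threshold, at 0.20 with an adjusted p of 0.0481, without induced replicate 1, the lowest of the induced arrays.

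Ada, which deaminates adenosine, and Adk, which phosphorylates it, did not pass the test at any time. Ada had 126, 111 and 113 in induced arrays at 12 h, against 96.9, 110 and 109 in uninduced arrays. At 24 h it had 128, 147 and 144 in induced arrays, against 103, 103 and 119 in uninduced arrays, and at 48 h 101, 112 and 131 in induced arrays, against 93.1, 116 and 106 in uninduced arrays. The induced arrays lay above all uninduced ones at 12 and 24 h but not at 48 h. The margin at 12 h was narrow, at 110.7 against 110.4. How many of all genes separate in this way was not counted, so separations here and below are given as descriptions. The change at 24 h was 0.29 (interval 0.09 to 0.50) with an adjusted p of 0.116 by limma, which missed the threshold. Adk lay between 3516 and 5326 over all arrays on its brightest probe set, 1438292_x_at, and its changes were 0.09, 0.05 and -0.05 at 12, 24 and 48 h. Its induced arrays at 12 h, at 4609, 4334 and 4318, lay above all uninduced ones, at 4246, 3929 and 4298. The groups overlapped at 24 and 48 h. The name of that probe set marks possible matches to other transcripts, and of the 6 probe sets of Adk none was called in any of the 3 comparisons.

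Of the synthesis enzymes, Paics, which carries out a carboxylase and a synthetase step on the way to the ring, was lower at 48 h. Its signal was 4486, 5064 and 4737 in induced arrays and 5913, 5749 and 5537 in uninduced arrays. All induced arrays lay below all uninduced arrays. The change was -0.27 ± 0.0637 (SE; adjusted p = 0.00613 by limma). It held without each array in turn (adjusted p up to 0.0423), but 1 of the 3 probe sets of Paics carried it, the others having changes of -0.02 and -0.04, and with all 3 averaged the change was -0.11 (adjusted p = 0.326 by limma). At 12 and 24 h Paics had changes of 0.05 and 0.05.

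**Figure D3:**
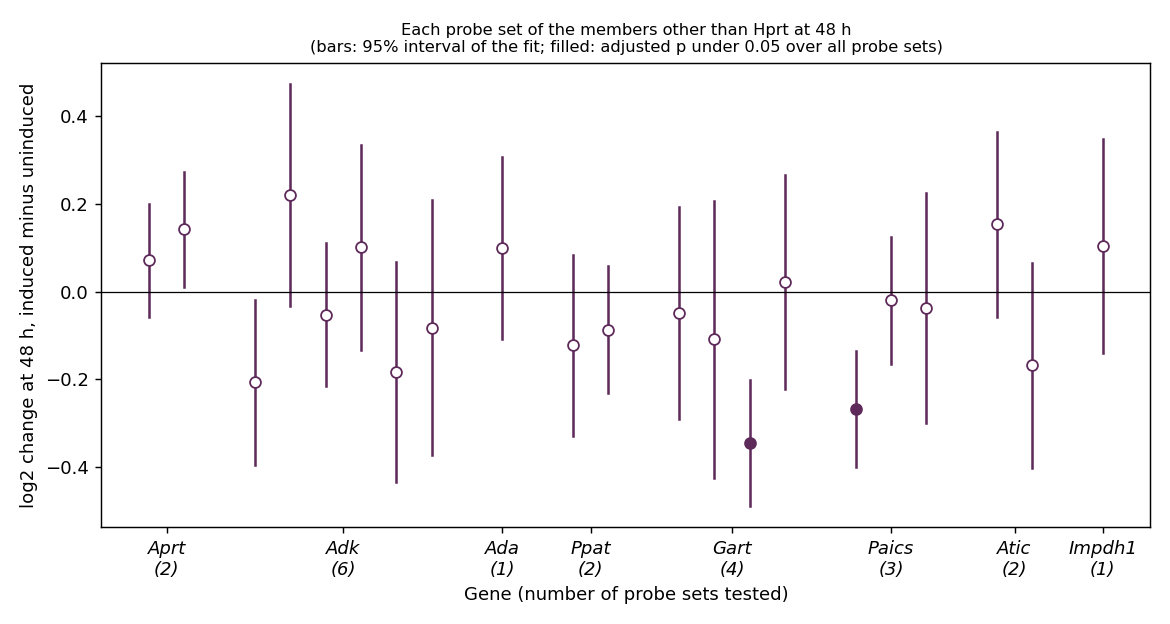
Log2 change at 48 h of each probe set kept for the 8 members other than Hprt, grouped by gene with the number of probe sets in brackets; bars are 95% intervals and filled points have an adjusted p under 0.05 over all probe sets. One probe set of Paics (-0.27) and one of Gart (-0.34) are called lower, and the other probe sets of those genes are not.

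Gart, which carries several activities of the synthesis route in a single protein, had probe sets that disagreed. On its brightest one, 1416283_at, the signals at 12 h were 1030, 870 and 1108 in induced arrays and 1196, 1362 and 1314 in uninduced arrays. The induced arrays lay below all uninduced ones there, with a change of -0.36 (adjusted p = 0.177 by limma), and the groups overlapped at 24 and 48 h. A further probe set, 1424436_at, was called lower at 48 h: 747, 731 and 802 in induced arrays, against 976, 914 and 1033 in uninduced arrays, a change of -0.34 (adjusted p = 0.00185 by limma over all probe sets), while the brightest gave -0.05. Over the 21 probe sets kept for the 8 members, 0 were called at 12 h, 2 at 24 h (both of Aprt) and 2 at 48 h (of Paics and Gart), all of them lower. Of all probe sets, 0.557% were higher and 0.0921% lower at 12 h, and 4.94% were higher and 3.9% lower at 48 h.

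Ppat, which catalyses the committed step of synthesis, had 904, 941 and 979 in induced arrays at 48 h, against 999, 1013 and 991 in uninduced arrays. The induced arrays lay below all uninduced ones at 12 h and 48 h, yet the changes were -0.08 and -0.09 and neither passed the test (adjusted p = 0.763 and 0.504 by limma). Atic, which closes the ring, overlapped between the groups at every time, with signals of 1301 to 1787 in induced arrays and 1264 to 1801 in uninduced arrays and changes of -0.10, -0.09 and 0.15. Its dimmer probe set gave -0.31, -0.23 and -0.17 and was not called. Impdh1, the guanine nucleotide enzyme, had 122 to 181 in induced arrays and 116 to 163 in uninduced arrays, overlapped at every time and changed by -0.03, 0.06 and 0.10.

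Calls over time were counted within each treatment. In induced arrays, 48 h against 12 h, 0 members were higher and 3 lower (22.7% of all genes were higher and 18.8% lower). They were Adk, with a change of -0.27 (adjusted p = 0.00888 by limma), Ppat, with a change of -0.32 (adjusted p = 6.65e-04 by limma), and Paics, with a change of -0.31 (adjusted p = 3.91e-04 by limma). The call of Adk was lost under quantile normalization, at -0.09 with an adjusted p of 0.271. Over all probe sets, its 1416319_at (-0.33, adjusted p = 0.00607 by limma) and 1449641_at (-0.59, adjusted p = 0.00204 by limma) were also lower. So was the dim 1446675_at (-0.36, adjusted p = 0.0243 by limma). Its 1421767_at and 1446068_at changed by -0.13 and 0.08 and were not called. The other probe sets of Paics changed by -0.03 and -0.22 and were not called. Over the 21 probe sets, 9 were lower and 1 higher in this comparison, where 14.9% of all probe sets were lower and 19.7% higher. Gart, which was not called on its brightest probe set, was lower on 1424436_at, at -0.69 (adjusted p = 7.49e-08 by limma) and on 1441911_x_at, at -0.60 (adjusted p = 3.35e-04 by limma), and the higher one was the dimmer probe set of Atic, at 0.33 (adjusted p = 0.0246 by limma). In uninduced arrays, 48 h against 12 h, 0 members were higher and 2 lower (18.6% and 14.9% of all genes): Ppat, with a change of -0.31 (adjusted p = 0.00127 by limma), and Aprt, with a change of -0.18 (adjusted p = 0.0311 by limma). The call of Aprt was lost when any of the arrays compared other than uninduced 48 h replicate 1 was left out (adjusted p 0.0515 to 0.116) and under quantile normalization (0.153), and with probe sets of possible other matches left out neither gene was called (adjusted p = 0.112 for Aprt and 0.0635 for Ppat). In uninduced arrays 4 of the 21 probe sets were lower and 0 higher, where 11.4% of all probe sets were lower and 15.7% higher, and 2 of the 4 were the same probe sets of Gart, with changes of -0.40 and -0.45. Falls were common over all genes in this interval, and nothing particular to the list is read from these counts.

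The effect of induction differed between 48 h and 12 h for 1 of the 8, Paics, with a difference of -0.31 (adjusted p = 0.0430 by limma), where 2.81% of all genes had a higher and 2.61% a lower effect. The call was lost when any 1 of 13 of the 18 arrays was left out (adjusted p 0.0505 to 0.123), that is all but induced 12 h replicate 1, induced 24 h replicates 1 and 3, uninduced 24 h replicate 3 and induced 48 h replicate 2. It was also lost under quantile normalization (0.161), with no filter on low signals (0.0733), with no intensity trend (0.136), over all probe sets (0.0569) and with the probe sets averaged (0.291). The difference of Hprt's own effect between 48 h and 12 h was 1.11, for comparison without a test.

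Other genes of purine synthesis, from a list of 9 with all 9 tested, were called in 2 cases at 48 h, 1 higher and 1 lower (6.84% of all genes were higher and 5.53% lower), and in none at 12 or 24 h. Adssl1, which makes adenylosuccinate, was higher at 48 h, with 265, 191 and 249 in induced arrays and 152, 148 and 136 in uninduced arrays, a change of 0.58 (adjusted p = 8.47e-04 by limma). Its mean signal also rose without induction, from 56.2 at 12 h to 145 at 48 h, and went from 49.9 to 235 in induced arrays. Prps1, which makes the ribose phosphate donor, was lower at 48 h, with a change of -0.26 (adjusted p = 0.0310 by limma). That call was lost without induced 48 h replicate 1 or uninduced 48 h replicate 2 or 3 (adjusted p 0.0783 to 0.189) on the 48 h arrays alone (0.0536) and with no intensity trend (0.0636). The median change of the list was -0.03, 0.01 and -0.05 at 12, 24 and 48 h.

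Of 27 other genes of purine salvage, interconversion and breakdown, 19 were tested, and 0 were called at 12 h. At 24 h 3 were lower and 0 higher, where 0.989% of all genes were lower and 2.91% higher. At 48 h 2 were higher and 0 lower, where 6.84% of all genes were higher and 5.53% lower. The list medians were -0.06 and -0.01 at 24 and 48 h. Ak1, an adenylate kinase, had 285, 260 and 250 in induced arrays at 24 h, against 366, 302 and 360 in uninduced arrays, a change of -0.33 (adjusted p = 0.0387 by limma). At 48 h it had 348, 294 and 311 in induced arrays, against 168, 156 and 151 in uninduced arrays, a change of 0.88 (adjusted p = 3.39e-07 by limma). The groups separated at both times, in opposite directions. In uninduced arrays Ak1 fell by 1.09 log2 units at 48 h relative to 12 h. Gda, guanine deaminase, was lower at 24 h, with a change of -0.40 (adjusted p = 0.0152 by limma) at signals of 12.1 to 13.8 in induced arrays and 25.7 to 30.0 in uninduced arrays, and so was Pnp, purine nucleoside phosphorylase, with a change of -0.32 (adjusted p = 0.0421 by limma). Nt5c3, a nucleotidase known for acting on pyrimidine nucleotides, was higher at 48 h by 0.25 (adjusted p = 0.0426 by limma), so that 1 of the 2 higher calls of the list is of an enzyme better known outside the purine route. Apart from that of Ak1 at 48 h, these calls were lost when certain single arrays were left out. The 24 h call of Ak1 was lost without induced 12 h replicate 2 or 3, induced 24 h replicate 2 or 3, or uninduced 24 h replicate 1 or 3 (adjusted p up to 0.171). That of Gda was lost without induced or uninduced 24 h replicate 1 (0.0560 and 0.0717) with probe sets averaged (0.113), and with same-numbered 24 h arrays paired as a block (0.0776). That of Pnp was lost without any 1 of 9 arrays, namely the induced ones at 12 h, induced 24 h replicates 1 and 2, uninduced 24 h replicates 1 and 3, and uninduced replicate 1 at 12 h and at 48 h (0.0511 to 0.236). That of Nt5c3 was lost without any 1 of 10 arrays, namely replicates 2 and 3 at 12 h, 1 and 2 at 24 h and 1 and 3 at 48 h of the induced ones, and replicate 1 at 12 h and 24 h and 1 and 2 at 48 h of the uninduced ones (0.0502 to 0.150).

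Of 14 genes that supply carbon units, which purine rings are built with, 12 were tested, and at 48 h 4 were higher and 0 lower, where 6.84% of all genes were higher and 5.53% lower; the median over the list was 0.20. None was called at 12 or 24 h. Psat1, of serine synthesis, had 1883, 2070 and 2086 in induced arrays and 1167, 1304 and 1034 in uninduced arrays at 48 h, a change of 0.77 (adjusted p = 6.33e-07 by limma). Psph, the phosphatase that completes serine synthesis, had 478, 611 and 502 in induced arrays and 354, 351 and 310 in uninduced arrays, a change of 0.60 (adjusted p = 8.52e-05 by limma). Mthfd2, a mitochondrial folate enzyme, was higher in induced arrays by 0.55 (adjusted p = 0.00131 by limma), and Shmt2, the mitochondrial serine hydroxymethyltransferase, by 0.45 (adjusted p = 0.00869 by limma), a call that was lost without uninduced 48 h replicate 1 (adjusted p = 0.0610). In uninduced arrays, Psat1 fell by 0.88 and Psph by 1.10 at 48 h relative to 12 h. Mean signals in induced arrays went from 2208 to 2013 for Psat1 and from 706 to 531 for Psph between those times. Between the same times, Mthfd2 changed by 0.14 in induced arrays (adjusted p = 0.327 by limma) and fell by 0.60 in uninduced arrays (adjusted p = 1.92e-04 by limma). Shmt2 rose by 0.28 in induced arrays (adjusted p = 0.0496 by limma), and its difference was -0.17 in uninduced arrays (adjusted p = 0.258 by limma). The pluripotency markers named above were lower in induced arrays at the same time, and their part in these changes was not tested.

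Of 16 genes of pyrimidine synthesis and salvage, which make the other class of nucleotide, 15 were tested and 1 was called, where 5.53% of all genes were lower and 6.84% higher: Upp1 (uridine phosphorylase), lower at 48 h with a change of -0.54 (adjusted p = 0.0478 by limma). The call of Upp1 was lost without any 1 of 12 arrays, namely all 6 at 48 h, the 3 induced ones at 24 h, uninduced 24 h replicate 1, induced 12 h replicate 2 and uninduced 12 h replicate 1 (adjusted p 0.0502 to 0.184). The median of the list was -0.05, 0.04 and 0.05 at the 3 times.

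**Figure D4:**
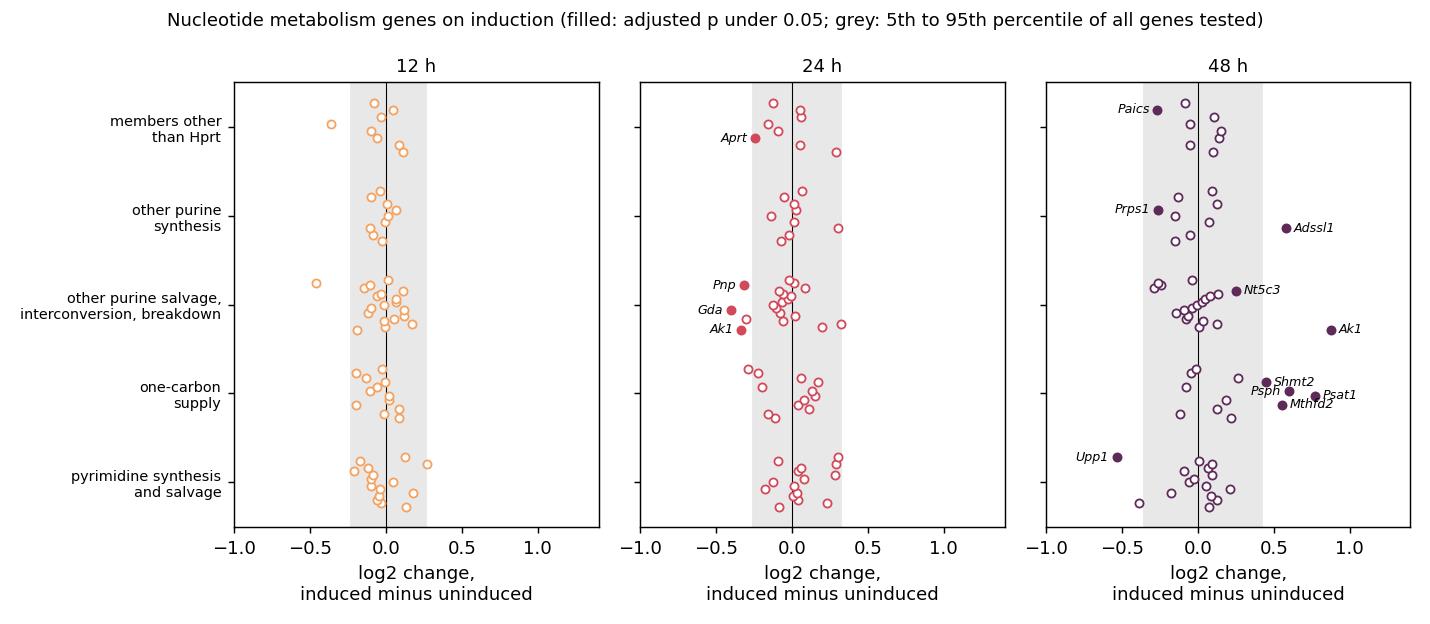
Log2 change on induction at 12, 24 and 48 h of the members other than Hprt and of 4 lists of nucleotide metabolism genes; filled points have an adjusted p under 0.05, and the grey band runs from the 5th to the 95th percentile of all 14351 genes. At 12 h no point is filled, and at 48 h Ak1 (0.88) and 4 genes of carbon unit supply lie to the right.

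The neighbours of Hprt on the X chromosome were looked at because of the position of the cassette. Of the 10 nearest genes with a probe set matched to 1 gene, 5 on each side, 6 were tested, and the other 4 were too dim. At 12 and 24 h, 0 of the 6 were called. The nearest on one side, Phf6, 31.1 kb away, had 266, 296 and 285 in induced arrays at 48 h, against 281, 251 and 276 in uninduced arrays, with changes of -0.07, 0.10 and 0.06 at 12, 24 and 48 h. The nearest on the other side, Plac1, 48.3 kb away, had changes of 0.30, 0.04 and 0.32, with signals of 0.933 to 35.4 in induced arrays and 0.405 to 12.1 in uninduced arrays. It passed the filter on low signals through its induced 48 h group alone, in which 1 array stood at 35.4 and the others at 7.23 and 13.8, so its changes are given as values. Plac1 is counted among the 6 only through that group, and no test of it is read. At 48 h, 2 of the 6 were higher, where 6.84% of all genes were higher: Gpc3, 374.1 kb away, which encodes a surface proteoglycan, and Fam122b, 221.8 kb away. Gpc3 had 1679, 1080 and 1289 in induced arrays and 587, 709 and 514 in uninduced arrays, a change of 1.11 (adjusted p = 8.72e-06 by limma), and it also rose by 1.78 at 48 h relative to 12 h without induction. Fam122b had 170, 165 and 182 in induced arrays and 123, 134 and 131 in uninduced arrays, a change of 0.34 (adjusted p = 0.00736 by limma). Its change at 12 h was -0.30 (adjusted p = 0.0936 by limma). Between 12 and 48 h it changed by -0.09 in induced arrays and fell by 0.73 in uninduced arrays (adjusted p = 4.26e-07 by limma).

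**Figure D5:**
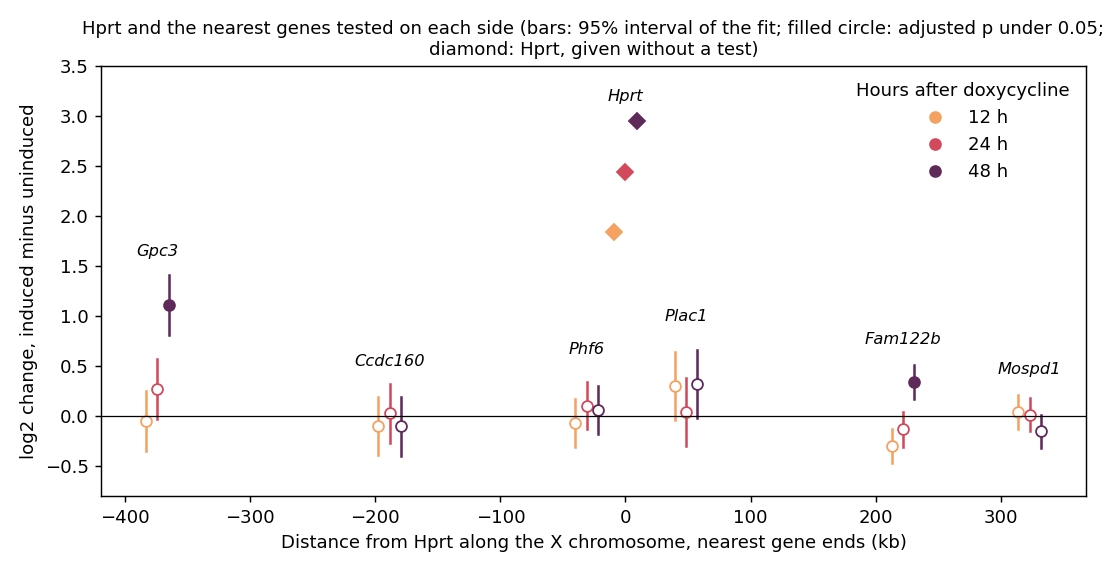
Log2 change on induction of Hprt (diamonds, no test) and the 6 tested neighbouring genes at 12, 24 and 48 h, against distance in kb from Hprt; bars are 95% intervals and filled circles have an adjusted p under 0.05. Phf6, the nearest on one side, has open circles at every time, and Gpc3 (1.11) and Fam122b (0.34) are filled at 48 h. Plac1, the nearest on the other side, passed the filter only through its induced 48 h group, and no test of it is read.

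The 5 genes whose pattern over the 18 arrays was most like that of Hprt were Fstl1 (Pearson r = 0.956), Ptgds (0.954), Inka1 (0.953), Dll3 and Etv2 (0.938 each). They were chosen by this likeness, over arrays that share the induction, and no p is given. Dll3, a Notch ligand, ran from 466 to 798 in induced arrays and from 115 to 270 in uninduced arrays. Among the members, Ada had the highest r with Hprt, 0.60, and Ppat the lowest, -0.46, over the same 18 arrays, which hold the difference of Hprt between induced and uninduced arrays. Over the 9 uninduced arrays alone r was 0.0025 for Ada and -0.19 for Ppat, and among the members it ran from -0.42 (Paics) to 0.43 (Gart).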

How the data were processed

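RNA of 18 embryoid body samples, 100 ng each, was measured on single-channel Affymetrix arrays. The deposited values are signal intensity on a linear scale, 1 for each of 45101 probe sets, made by the authors with GCOS, per the submitters' processing notes. How GCOS computed the signal, and to which target it scaled, is not given in the sources used here. A 2% trimmed mean of 150.001 was found on every array. Precision is set by how many arrays there are.

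After 64 control probe sets were left out, 34945 were matched to 1 gene, 932 to several and 9160 to none. Probe sets stayed in where the mean in at least 1 group was at or above a signal of 13.2 (the 40th percentile), and the brightest one stood for its gene, giving 14351 genes. On log2(signal + 32) values, limma 3.58.1 (R 4.3.3) estimated the group means over all 18 arrays with 12 residual degrees of freedom and an intensity trend in the moderated variances. Adjustment was by Benjamini-Hochberg over all genes. Changes on this scale understate those of dim genes.

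The members and lists were chosen with earlier results of these data known. Named genes were the members, Msgn1, up to 4 called genes per list, the 5 nearest neighbours of Hprt on each side and the 5 genes most like Hprt. Deviations of same-numbered arrays from their group means had r = 0.194, 0.130 and 0.438 at 24 h, where the highest r with another number was 0.201, 0.118 and -0.262, so that 24 h arrays of replicate 3 alone stood clearly apart. At 12 h (0.0105, 0.0720 and -0.0679) and 48 h (-0.126, -0.0666 and 0.0825) no same-numbered r was over 0.1. The highest r with another number was 0.112, -0.0277 and 0.0498 at 12 h, and 0.163, 0.108 and 0.0306 at 48 h. The alternatives were other offsets, filters, normalizations, probe set choices, variance trends, array subsets and a replicate block. The test was checked on simulated data with independent noise on each array and changes set in the induced 48 h arrays alone. Deviations shared between arrays were not simulated, so that check does not cover them. Sequences are from RefSeq (GRCm38.p6).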

Additional observations from a re-analysis of the deposited data

Results flagged for a closer look

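By the test of the difference itself, 2.81% of all genes had a higher and 2.61% a lower induction effect at 48 h than at 12 h. The named genes of the lists were picked by their calls on induction. Among these, the members and the neighbours of Hprt, the effect of 8 genes was larger or smaller at 48 h. The difference holds the same 48 h values by which the list genes were picked, so their calls here are no independent result. The count is therefore not compared with the shares of all genes. Of the members this was Paics (-0.31), whose call was lost under several settings given above. Of the lists it was Adssl1 (0.69), Ak1 (1.07), Psat1 (0.75), Psph (0.70) and Mthfd2 (0.75), and of the neighbours of Hprt it was Gpc3 (1.15) and Fam122b (0.64). For 3 genes every induced array lay on one side of every uninduced array at one time and on the other side at another. Ak1 differed in this way between 48 h and 24 h (1.21) and between 48 h and 12 h (1.07), Gda between 24 h and 12 h (-0.52), and Fam122b between 48 h and 24 h (0.47) and between 48 h and 12 h (0.64). The differences of Ak1 and Fam122b between 48 h and 24 h and that of Gda were not tested. How many of all genes separate in opposite directions was not counted, so the 3 genes are given as a description.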

How the results depend on the processing

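The counts of members called were compared over 31 other settings. At 12 h no member was called under any of them. The 24 h count of 1 was 0 with no intensity trend and with the 24 h arrays alone, and 0 to 1 leaving out each array. The 48 h count of 1 was 0 with probe sets averaged and 1 to 2 leaving out each array. The count of 1 for the difference of effects was 0 under quantile normalization, no filter, averaged probe sets, probe set level and no intensity trend, and 0 to 1 leaving out each array. In uninduced arrays over time the count of 2 was 1 under quantile normalization and no intensity trend, 0 without probe sets of possible other matches (chosen after seeing the data), and 1 to 2 leaving out each array. In induced arrays over time the count of 3 was 5 with probe sets averaged. The cause was not tested. With a replicate block, which treats same-numbered arrays as pairs, the member counts were 0, 1 and 1 at 12, 24 and 48 h, as without it, and 1 in a 24 h replicate block; beyond the members, the calls of Pnp (adjusted p = 0.0562 by limma), Nt5c3 (0.0555) and Upp1 (0.0655) ended in the block and that of Gda in the 24 h block (0.0776). Signs turned for these uncalled changes near 0. At 12 h these were Paics (-0.0129 under quantile normalization), Impdh1 (-0.0860 to 0.0460 leaving out each array) and Phf6 (0.0403 averaged, -0.151 to 0.0342 leaving out each array). At 24 h they were Adk (-0.0202 averaged, -0.0148 without probe sets of possible other matches, -0.0465 to 0.127 leaving out each array), Atic (-0.189 to 0.0236), Impdh1 (-0.0511 to 0.144) and Plac1 (-0.0401 to 0.169), the last 3 leaving out each array. At 48 h they were Gart (-0.157 to 0.0186 leaving out each array) and Atic (-0.00718 averaged). Gart over time in induced arrays ran from -0.0616 to 0.108 leaving out each array and was -0.32 with probe sets averaged, where it was called (adjusted p = 0.00392 by limma). Hprt's differences, given without a test, were 1.72 to 1.91, 2.31 to 2.61 and 2.80 to 3.04 over all settings.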
